A study of Mus musculus with 18 samples.

Results

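The methionine cycle and transsulfuration genes described here are 9 genes chosen by name for the reactions their enzymes catalyse, namely *Mat1a*, *Gnmt*, *Ahcy*, *Bhmt*, *Bhmt2*, *Cbs*, *Cth*, *Pemt* and *Nnmt*. They were chosen with earlier results of these data known. All 9 were found among the 23352 gene symbols of the deposited tables, all had a valid estimate in each of the 18 libraries, and all were among the 10835 genes compared. The RNA came from livers of male mice on the C57BL/6J background, 20 weeks old and fed high-fat diet (HFD), of which 9 were wild-type (WT) and 9 carried the *Gpr180* deletion (*Gpr180*KO), with 1 library per mouse. The authors established both genotypes by mating heterozygous founders. The deletion removes an internal exon in every tissue of homozygous mice and leaves a truncated mRNA. In these libraries, liver and other organs therefore cannot be told apart as the site at which the deletion acts. Values are FPKM, a measure of reads corrected for transcript length and for the size of the library, which allows levels of different genes to be compared.

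Methionine is activated in the cycle to S-adenosylmethionine, the methyl donor of the cell, and after the methyl group has been passed on, S-adenosylhomocysteine is split into adenosine and homocysteine. Homocysteine is either methylated back to methionine or enters transsulfuration, in which it is joined to serine and the product is cleaved to cysteine, a building block of glutathione and taurine. The liver handles much of the body's methionine, and its methyl acceptors include glycine, phosphatidylethanolamine and nicotinamide, methylated by the products of *Gnmt*, *Pemt* and *Nnmt*.

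In the GENCODE annotation of GRCm38, *Mat1a* lies at chr14:41105035-41124412 on the plus strand, and the other members lie on the minus strand. These are *Gnmt* at chr17:46725664-46729168, *Ahcy* at chr2:155059310-155074497, *Cbs* at chr17:31608894-31637238, *Cth* at chr3:157894248-157925077, *Pemt* at chr11:59970614-60046489 and *Nnmt* at chr9:48591877-48605153. *Bhmt* at chr13:93616675-93637961 and *Bhmt2* at chr13:93655720-93674302 are neighbours, with 17758 bases between them. The members differ in how much of their sequence is unique, which bears on single reads of 75 bases. Of the 75-base windows of its longest coding transcript, *Ahcy* shared 74.4% with transcripts of other genes (*Gm4737* and *Gm9826* for the most part) and *Bhmt* shared 51.4% (*Gm5096* and *Bhmt-ps1*), so the level of both is uncertain to the extent that reads were placed on these near-copies. None of these 4 genes had an entry of its own and none was analysed here. *Bhmt2* shared 2.72% of its windows, *Cbs* 0.16% and the other members none. An antisense gene, *Gm15622*, overlaps 3.25% of the exon bases of *Bhmt*, and whether reads were counted by strand is not given in the sources used here.

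Promoter windows of the RefSeq table for GRCm38.p6 were read for 6 of the members (*Mat1a*, *Cth* and *Nnmt* had no entry). The 250 bases before the start are shown for *Gnmt* and *Ahcy* and for *Bhmt* and *Bhmt2*, each a pair of genes whose levels moved together between mice, and for *Cbs*, which moved with *Cth* and *Nnmt* (all described further on). Capitals mark every match, on either strand, to the CCAAT box (CCAAT or ATTGG), the GC box (GGGCGG or CCGCCC), the E-box (CACGTG), the TATA box (TATAAA or TTTATA), the half-site of the cAMP response element (TGACG or CGTCA) and the half-site of the glucocorticoid response element (AGAACA or TGTTCT), and no matches overlap in these windows. All runs are written 5′ to 3′ on the gene's own strand and end at the base before the start used for the window. For *Gnmt*, *Bhmt* and *Cbs*, the GENCODE end of the gene given above lies inside the window. Part of these windows is therefore within the gene in that annotation.
Gnmt, chr17:46729166-46729415: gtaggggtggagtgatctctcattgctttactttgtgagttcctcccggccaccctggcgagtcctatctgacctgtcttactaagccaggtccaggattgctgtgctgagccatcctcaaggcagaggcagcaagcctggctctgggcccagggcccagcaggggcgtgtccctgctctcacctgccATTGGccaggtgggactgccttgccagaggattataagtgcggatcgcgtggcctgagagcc
Ahcy, chr2:155074498-155074747: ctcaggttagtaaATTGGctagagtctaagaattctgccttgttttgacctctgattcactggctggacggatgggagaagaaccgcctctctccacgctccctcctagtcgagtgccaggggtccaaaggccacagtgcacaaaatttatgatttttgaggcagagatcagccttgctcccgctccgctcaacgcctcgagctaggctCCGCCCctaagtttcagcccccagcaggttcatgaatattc
Bhmt, chr13:93637759-93638008: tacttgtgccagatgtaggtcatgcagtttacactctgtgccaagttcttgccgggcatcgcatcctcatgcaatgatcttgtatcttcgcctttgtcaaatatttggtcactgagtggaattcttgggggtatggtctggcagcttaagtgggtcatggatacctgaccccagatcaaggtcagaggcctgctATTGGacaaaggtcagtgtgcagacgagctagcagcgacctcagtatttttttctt
Bhmt2, chr13:93674303-93674552: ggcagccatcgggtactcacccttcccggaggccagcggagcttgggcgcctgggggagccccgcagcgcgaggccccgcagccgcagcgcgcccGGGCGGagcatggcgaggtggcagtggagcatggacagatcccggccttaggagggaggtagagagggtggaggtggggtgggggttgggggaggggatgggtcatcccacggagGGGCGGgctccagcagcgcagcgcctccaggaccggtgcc
Cbs, chr17:31637206-31637455: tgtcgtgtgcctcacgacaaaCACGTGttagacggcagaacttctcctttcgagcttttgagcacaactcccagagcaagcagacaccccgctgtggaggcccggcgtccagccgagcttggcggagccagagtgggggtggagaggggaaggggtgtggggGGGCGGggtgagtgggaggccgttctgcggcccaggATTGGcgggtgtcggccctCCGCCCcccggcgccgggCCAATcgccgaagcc
The *Cbs* window held an E-box beginning at position -229, CCAAT boxes at -52 and -15 and GC boxes at -88 and -33, counted back from the start. Of all 32851 promoter windows of this length, 6.02% held this E-box, 33.8% a CCAAT box and 32.7% a GC box. *Gnmt* and *Ahcy* each held 1 CCAAT box, at -62 and -237, and *Ahcy* also held a GC box at -41. *Bhmt* held a CCAAT box at -56, whereas its neighbour *Bhmt2* held GC boxes at -155 and -40 and no CCAAT box. None of the 5 windows held a TATA box (12.4% of all windows), a TGACG half-site (17.8%) or an AGAACA half-site (16.1%). These are matches of letters, and binding was not measured.

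FPKM summed to 554796 to 718746 per library, with the highest sum in KOhfd51, which also had the lowest median correlation with the other libraries (r = 0.92). The tables give no read totals, and the relative depth of the libraries, read from the ratio of FPKM in low genes, was 44.4 to 100% of the deepest, with a median of 75.01% in WT and 68.2% in *Gpr180*KO. The sample titles come in 2 styles, called series 1 (4 mice per genotype) and series 2 (5 per genotype), and what else set the series apart is not given in the sources used here. *Gpr180* itself was 4.46 to 9.24 FPKM (median 7.29) in WT and 0.876 to 1.99 FPKM (median 1.79) in *Gpr180*KO, with no overlap, and the log2 difference was -1.998 ± 0.18 (SE, limma adjusted p = 4.7e-06). Of 12 hepatocyte markers, 1 was called higher and none lower, and their summed FPKM was 36581 to 46900 in WT and 41430 to 76027 in *Gpr180*KO, so the tissue label held. The summed FPKM of 9 stellate cell and fibroblast markers was 143 to 289 in WT and 80.9 to 146 in *Gpr180*KO (5 of 9 lower), of 8 macrophage markers 183 to 484 and 219 to 313 (1 of 8 lower), of 7 endothelial cell markers 90.3 to 144 and 83.1 to 129 (none), and of 6 cholangiocyte markers 40.9 to 226 and 17.4 to 51.0 (2 of the 2 compared lower). Of 7 lymphocyte markers none passed the minimum of 1 FPKM (sums 1.37 to 5.25 and 1.27 to 3.34), and of 5 adipocyte markers 1 did (1.603 to 46.7 and 4.44 to 279, with *Plin1* listed at 0 in every library). These lists were described alongside the members, and their part in the differences below was not tested. In bulk liver, fewer cells of a type and less RNA per cell cannot be told apart.

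Of the 9 genes, *Ahcy* and *Cbs* were called higher in *Gpr180*KO liver, none was called lower and 7 did not pass the adjusted threshold of 0.05. *Ahcy*, whose enzyme removes S-adenosylhomocysteine, was on average 1.34-fold and *Cbs*, the entry enzyme of transsulfuration, 1.36-fold the WT level. *Nnmt* had the largest difference of the 9, 1.92-fold between group means, with a limma adjusted p = 0.0733. Over all genes compared, 49 were called higher (0.452%) and 464 lower (4.28%). The mean was higher in *Gpr180*KO for 8 of the 9 members but for 23.1% of all genes, and the median log2 difference was 0.37 over the members and -0.13 over all genes. Over the 12 hepatocyte markers this median was 0.15. Together the 9 genes made up 0.815 to 1.17% of the FPKM of a WT library (median 0.942%) and 0.823 to 1.28% (median 1.097%) of a *Gpr180*KO library.

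**Figure D1:**
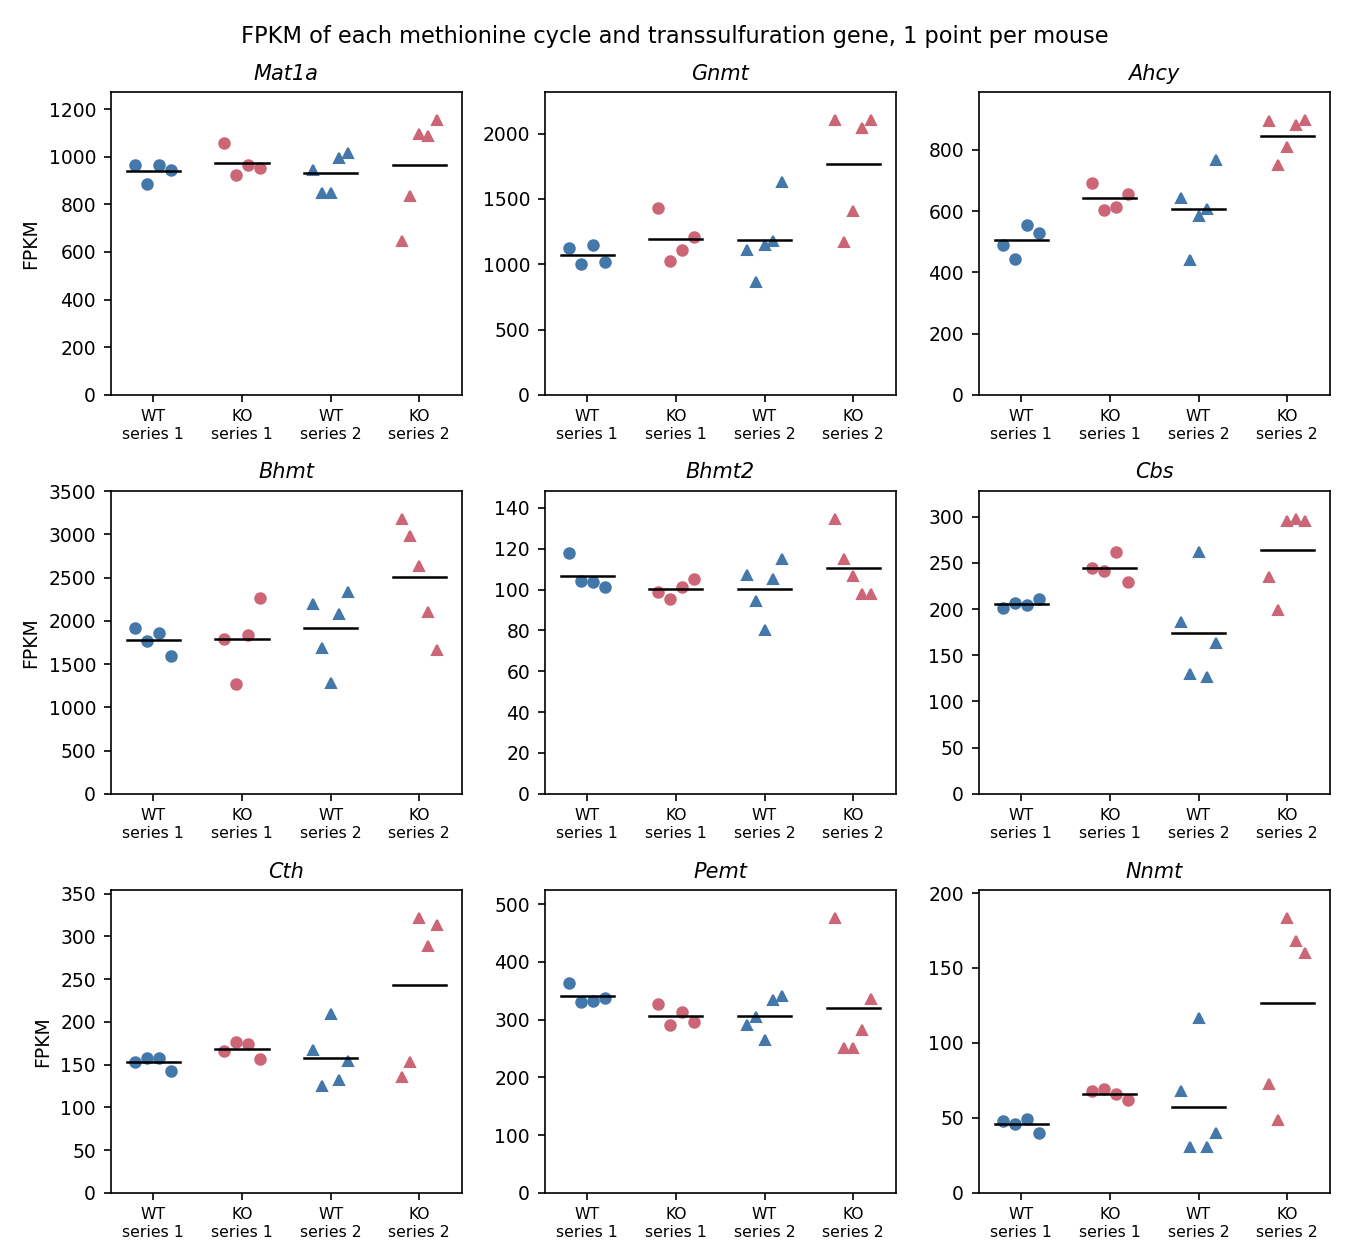
Each panel plots 1 gene, with FPKM on a linear axis from 0 and 1 point per mouse for WT and *Gpr180*KO (KO) of series 1 (circles, 4 mice per genotype) and series 2 (triangles, 5 per genotype); black lines are group means. In series 1 the KO points of *Ahcy*, *Cbs* and *Nnmt* sit above all WT points, as for 3.29% of all genes compared. Those of *Pemt* sit below all WT points there, as for 11.5% of all genes. In series 2 the KO points of *Cth* and *Nnmt* spread from 136 to 322 and from 48.8 to 184 FPKM.

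The first enzymes of the cycle make, use and clear S-adenosylmethionine. *Mat1a*, the liver form of methionine adenosyltransferase, was 847 to 1016 FPKM (median 944) in WT and 646 to 1156 FPKM (median 967) in *Gpr180*KO. The groups overlapped, with 4 *Gpr180*KO mice above every WT mouse and 2 below, and the log2 difference of 0.04 ± 0.10 (SE, limma adjusted p = 0.84) had a 95% interval of -0.16 to 0.23. *Gnmt*, glycine N-methyltransferase, which uses up surplus S-adenosylmethionine, was 865 to 1632 FPKM (median 1124) in WT and 1026 to 2109 FPKM (median 1406) in *Gpr180*KO. KOhfd51, KOhfd54 and KOhfd56 of series 2 were above every WT mouse, at 2045 FPKM or more. Of the *Gpr180*KO mice, 7 of 9 were above the WT mean, and the log2 difference of 0.38 ± 0.15 (SE) did not pass the threshold (limma adjusted p = 0.157).

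*Ahcy*, S-adenosylhomocysteine hydrolase, removes the product that inhibits methyltransferases. It was 440.0 to 768 FPKM (median 556) in WT and 605 to 899.6 FPKM (median 752) in *Gpr180*KO. All 9 *Gpr180*KO mice were above the WT mean of 562 ± 104 FPKM (SD, n = 9) and 6 of the 9 WT mice were below the lowest *Gpr180*KO mouse. The log2 difference was 0.43 ± 0.11 (SE, limma adjusted p = 0.0373). The call was lost (limma adjusted p up to 0.0841) when 1 of 9 mice was left out, namely W317HFD, W318HFD, W319HFD, W320HFD, WThfd133, KOhfd52, KOhfd53, KOhfd54 or KOhfd56, while the difference stayed between 0.39 and 0.49. Reads of *Ahcy* could also have come from the near-copies named above.

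The enzymes of *Bhmt* and *Bhmt2* return homocysteine to methionine. *Bhmt*, betaine-homocysteine methyltransferase, was the most abundant member, 1281 to 2335 FPKM (median 1854) in WT and 1269 to 3182 FPKM (median 2105) in *Gpr180*KO. The groups overlapped over nearly the whole WT range, 5 of 9 *Gpr180*KO mice were above the WT mean, and the log2 difference of 0.20 ± 0.16 (SE, limma adjusted p = 0.448) had a 95% interval of -0.13 to 0.54. *Bhmt2*, whose enzyme takes the methyl group from S-methylmethionine, was 80.1 to 118 FPKM (median 104) in WT and 95.1 to 135 FPKM (median 101) in *Gpr180*KO, a log2 difference of 0.04 ± 0.08 (SE, limma adjusted p = 0.81). Only KOhfd51 was above every WT mouse, and without KOhfd51 the difference of *Bhmt2* was -0.0088.

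Transsulfuration was represented by its 2 enzymes. *Cbs*, cystathionine beta-synthase, joins homocysteine to serine and was 127 to 261 FPKM (median 201) in WT and 199 to 298 FPKM (median 245) in *Gpr180*KO. All 9 *Gpr180*KO mice were above the WT mean of 188 ± 42.4 FPKM (SD, n = 9) and 8 were above the WT median. The highest WT mouse, WThfd134, was exceeded by 4. The log2 difference was 0.47 ± 0.13 (SE, limma adjusted p = 0.0393). It stayed between 0.40 and 0.53 with any 1 mouse left out, but the call was lost (limma adjusted p up to 0.0864) without W317HFD, W318HFD, W320HFD, WThfd131, WThfd133, WThfd156, KO320HFD, KOhfd53, KOhfd54 or KOhfd56. *Cth*, cystathionine gamma-lyase, which releases cysteine, was 125 to 209 FPKM (median 155) in WT and 136 to 322 FPKM (median 174) in *Gpr180*KO. Its difference was carried by KOhfd53, KOhfd54 and KOhfd56, at 322, 289 and 314 FPKM, while the other 6 *Gpr180*KO mice were at 136 to 176 FPKM, inside the WT range. The log2 difference of 0.37 ± 0.17 (SE) did not pass the threshold (limma adjusted p = 0.197).

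The last 2 members are methyltransferases that draw on the cycle. *Pemt*, which makes phosphatidylcholine by methylating phosphatidylethanolamine, was 265 to 363 FPKM (median 333) in WT and 251 to 477 FPKM (median 295) in *Gpr180*KO. Of the *Gpr180*KO mice 7 of 9 were below the WT median and 3 were above the WT mean. KOhfd51 alone was above every WT mouse, and the log2 difference of -0.06 ± 0.10 (SE, limma adjusted p = 0.75) had a 95% interval of -0.28 to 0.16. *Nnmt*, nicotinamide N-methyltransferase, was 30.2 to 116 FPKM (median 46.1) in WT and 48.8 to 184 FPKM (median 69.3) in *Gpr180*KO. All 9 *Gpr180*KO mice were above the WT median and 8 were above the WT mean. Of the WT mice, 6 of 9 were below the lowest *Gpr180*KO mouse, but WThfd134 at 116 FPKM was above 6 of the 9 *Gpr180*KO mice. The log2 difference of 0.89 ± 0.29 (SE) did not pass the threshold (limma adjusted p = 0.0733) over all 18 mice and did pass without WThfd134 (1.06, limma adjusted p = 0.0298).

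**Figure D2:**
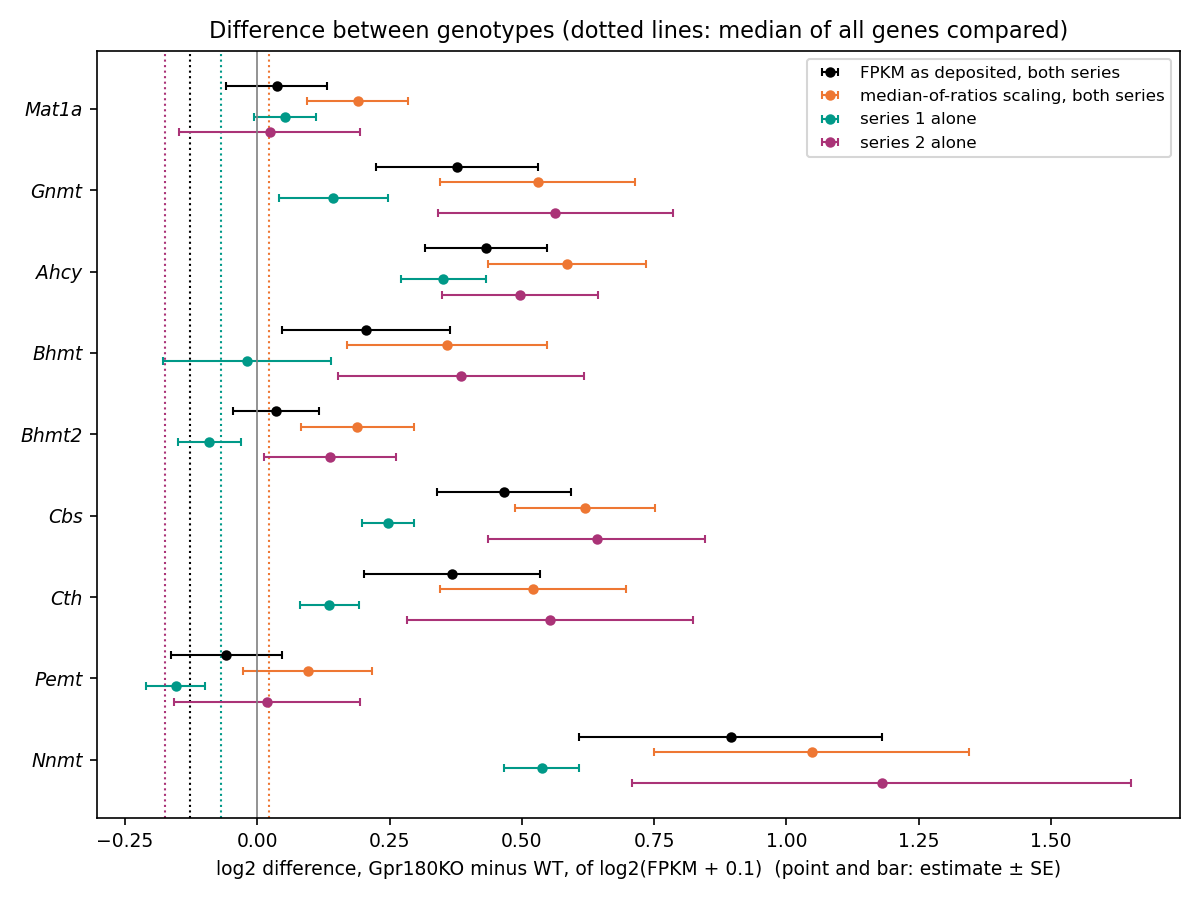
Points are the log2 difference between *Gpr180*KO and WT on the log2(FPKM + 0.1) scale and bars its SE, for FPKM as deposited, after median-of-ratios scaling, and in series 1 or series 2 alone; dotted lines in the same colours are the medians of the 10835 genes. *Ahcy*, *Cbs* and *Nnmt* lie to the right of 0 under all 4 settings, while *Pemt* lies at -0.06 as deposited and 0.09 after scaling.

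The scaling between libraries moved all genes together. With median-of-ratios scaling the median gene was at 0.02 in place of -0.13, and 146 genes (1.35%) were called higher and 147 (1.36%) lower. *Ahcy* (0.59, limma adjusted p = 0.0418) and *Cbs* (0.62, limma adjusted p = 0.0243) were again called higher and no other member was called, with *Nnmt* at 1.05 and a limma adjusted p = 0.0628. All 9 members then had a higher mean in *Gpr180*KO, since *Pemt* changed sign to 0.09, as had 55.1% of all genes. Relative to the median gene, the members were higher by 1.02 (*Nnmt*), 0.59 (*Cbs*), 0.56 (*Ahcy*), 0.50 (*Gnmt*), 0.49 (*Cth*), 0.33 (*Bhmt*), 0.16 (*Mat1a* and *Bhmt2*) and 0.07 (*Pemt*) on the log2 scale as deposited. When each library was rescaled to TPM, neither *Ahcy* (0.39) nor *Cbs* (0.43) was called.

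The 2 series gave the same direction for 6 members and different precision. In series 1, every *Gpr180*KO mouse was above every WT mouse for *Ahcy*, *Cbs* and *Nnmt*, which was the case for 3.29% of all genes, and every *Gpr180*KO mouse was below every WT mouse for *Pemt*, as for 11.5% of all genes. In series 1 alone, where 90 genes (0.831%) were called higher, *Ahcy* (0.35, limma adjusted p = 0.0439), *Cbs* (0.25, limma adjusted p = 0.0342) and *Nnmt* (0.54, limma adjusted p = 0.0190) were called. In series 2 the differences were 0.50 for *Ahcy*, 0.64 for *Cbs* and 1.18 for *Nnmt*, but no member was called. *Gnmt* was 0.14 in series 1 and 0.56 in series 2, *Cth* 0.14 and 0.55, and with weights per library the differences over both series were 0.17 and 0.25. None of the members was free of overlap in series 2 or over both series. In series 2, every *Gpr180*KO mouse was above every WT mouse for 59 of the 10835 genes (0.545%) and below for 596. Over both series this was the case for 6 (0.0554%) and 19 genes. In series 2 alone limma called 0 of all genes, with 2019 at an unadjusted p under 0.05. The difference between the series did not pass the threshold for any member, and limma's interaction term called 0 of the 10835 genes, with 833 at an unadjusted p under 0.05. The lowest interaction p of a member was 0.123, for *Cbs*. With weights per library the interaction called 45 genes and again no member, with unadjusted p = 0.00206 for *Cth* (limma adjusted p = 0.0934), 0.0109 for *Cbs*, 0.0148 for *Nnmt* and 0.0175 for *Gnmt*. With the series as a block, where 122 genes (1.13%) were called higher, *Nnmt* was called along with *Ahcy* and *Cbs* (limma adjusted p = 0.0442, 0.00692 and 0.0240).

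In series 2, a few mice were high in several members at once. *Nnmt* was highest in KOhfd53 (184 FPKM), KOhfd54 (168 FPKM), KOhfd56 (160 FPKM) and WThfd134 (116 FPKM), and no other mouse exceeded 72.8 FPKM. The same 4 mice had the highest *Cth*, with WThfd134 at 209 FPKM and all other mice at or below 176 FPKM. *Cbs* was 295, 298 and 295 FPKM in the same 3 *Gpr180*KO mice and 261 FPKM in WThfd134, against 127 to 186 FPKM in the other 4 WT mice of series 2. *Bhmt* did the opposite in WThfd134, where it was lowest of the WT mice at 1281 FPKM, and *Bhmt2* was lowest there too, at 80.1 FPKM. The same 3 *Gpr180*KO mice did not share this as a group. *Bhmt* was 2633 FPKM in KOhfd53, above every WT mouse, 2104.5 FPKM in KOhfd54 and 1662 FPKM in KOhfd56. KOhfd51, which stands apart as a library, had the lowest *Mat1a* (646 FPKM) and the highest *Bhmt* (3182 FPKM), *Bhmt2* (135 FPKM) and *Pemt* (477 FPKM) of all 18 mice. Without KOhfd51, *Ahcy* (0.40) and *Cbs* (0.48) were still called, with limma adjusted p = 0.0434 and 0.0385.

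**Figure D3:**
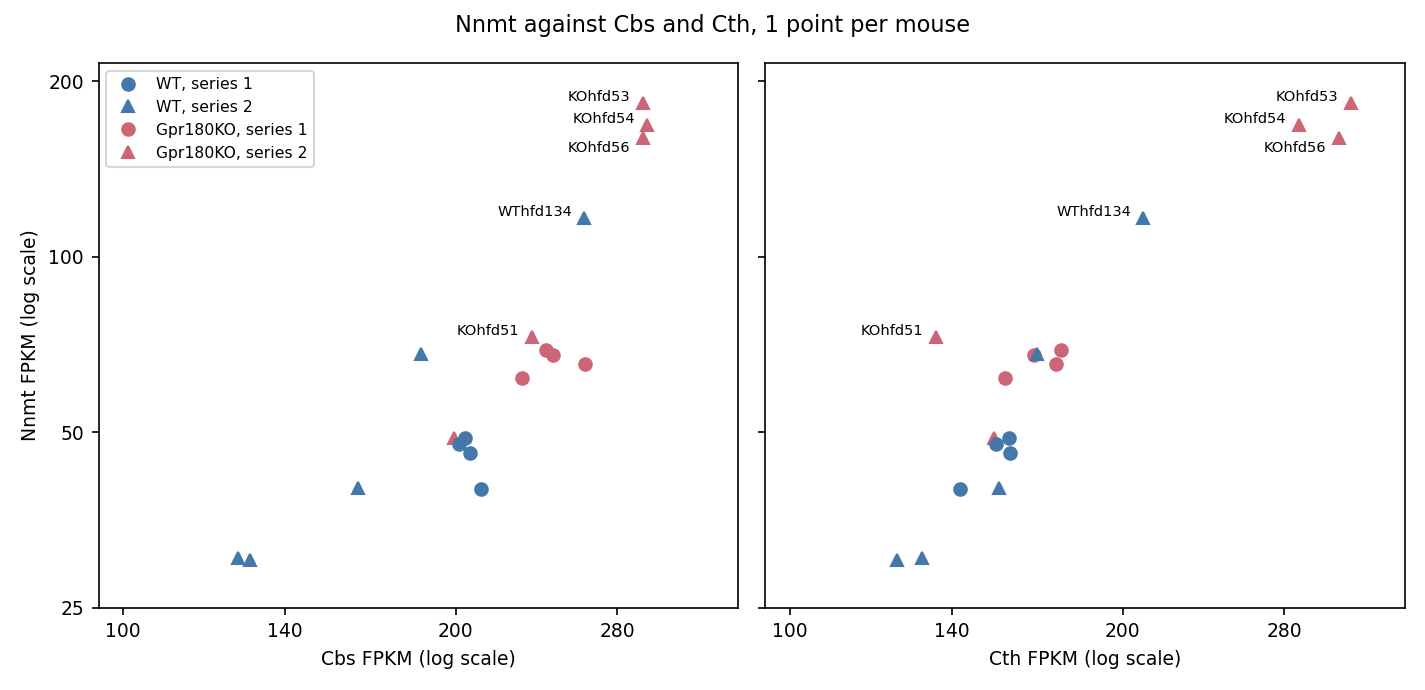
Each point is 1 mouse, with *Nnmt* FPKM on the vertical and *Cbs* (left) or *Cth* (right) FPKM on the horizontal axis, all on log scales, coloured by genotype with circles for series 1 and triangles for series 2. KOhfd53, KOhfd54, KOhfd56 and WThfd134 are at the top right of both panels, and KOhfd51 has 72.8 FPKM of *Nnmt* at 136 FPKM of *Cth*.

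The members were also compared with each other across mice, after the mean of each genotype in each series had been removed, as a description over 18 libraries that share their scaling. *Cbs* and *Nnmt* had a Pearson r = 0.94 (Spearman rho = 0.87), *Cth* and *Nnmt* 0.90 (0.92), *Bhmt* and *Bhmt2* 0.86 (0.91), *Gnmt* and *Ahcy* 0.81 (0.82) and *Cbs* and *Cth* 0.79 (0.87). Leaving out the 2 libraries farthest from the median of the first gene gave r = 0.93, 0.92, 0.79, 0.76 and 0.84. The relation of *Cbs* with *Nnmt* rested on series 2, where r was 0.96 over 10 mice, against -0.10 over the 8 mice of series 1, and that of *Cbs* with *Cth* was 0.80 in series 2 and 0.34 in series 1. The other 3 pairs were positive in both series, at 0.82 and 0.90 for *Cth* and *Nnmt*, 0.68 and 0.92 for *Bhmt* and *Bhmt2*, and 0.67 and 0.84 for *Gnmt* and *Ahcy*. *Bhmt* and *Bhmt2* went against *Cbs*, *Cth* and *Nnmt*, with r between -0.66 and -0.53 over all libraries. These 6 relations were weaker without the 2 farthest libraries (-0.42 to -0.22), and they lay between -0.70 and -0.60 in series 2 but between -0.41 and 0.13 in series 1.

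**Figure D4:**
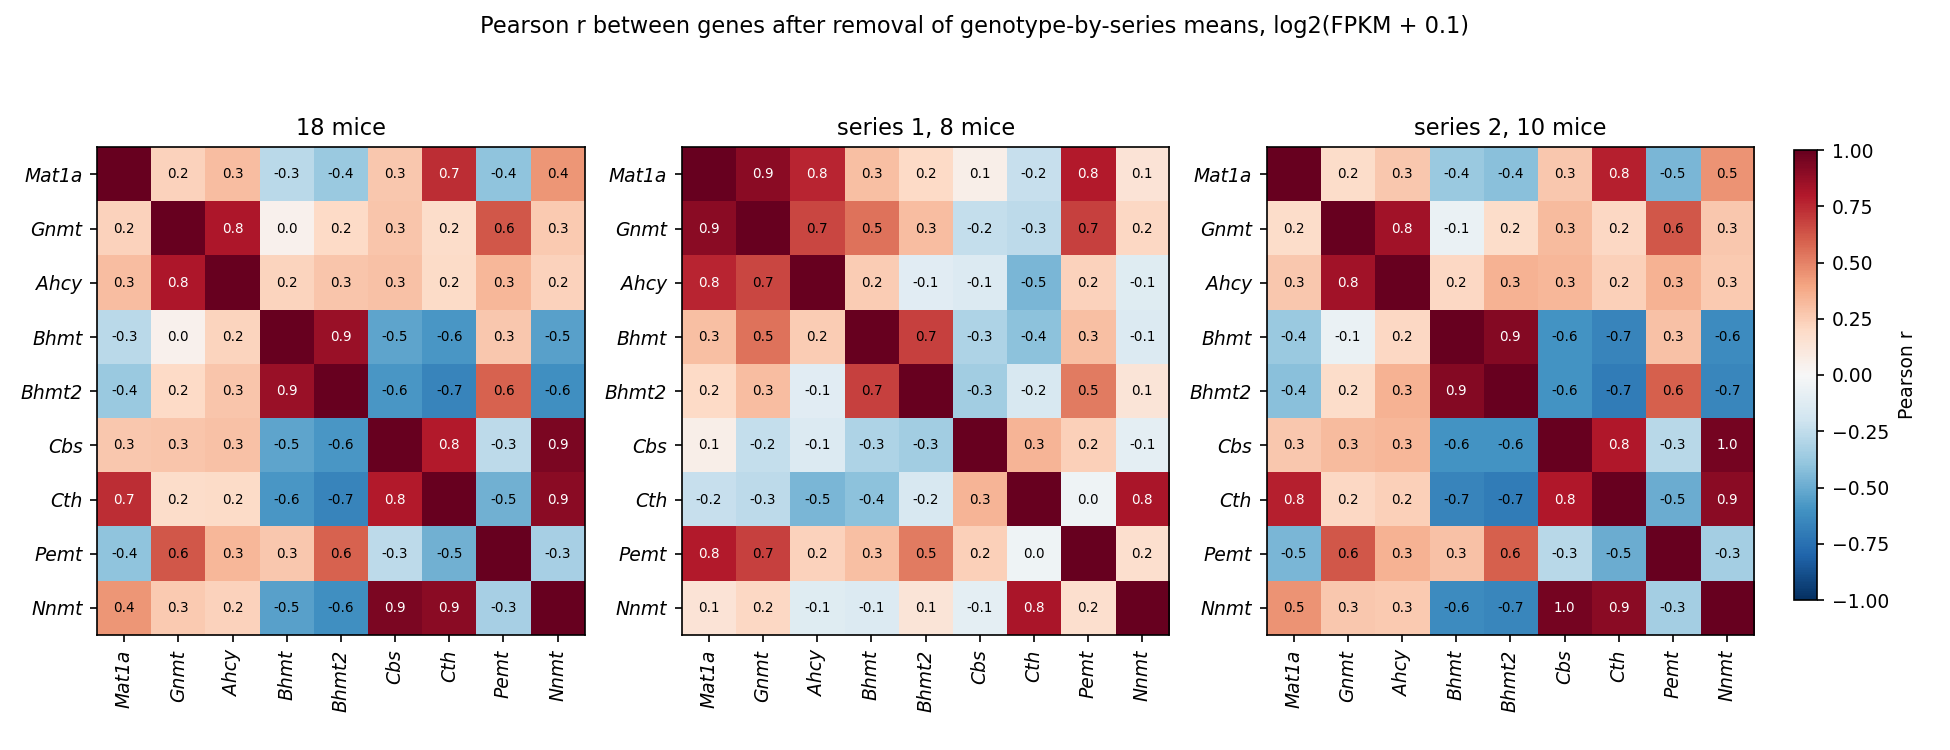
Colour and number give the Pearson r of log2(FPKM + 0.1) between 2 members after removal of the genotype-by-series means, over 18 mice (left), the 8 mice of series 1 (middle) and the 10 mice of series 2 (right). *Cbs* with *Nnmt* is 0.94 over 18 mice, -0.10 in series 1 and 0.96 in series 2.

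Among all other genes compared, those whose pattern over the 18 libraries was most like that of a member were named by the same measure. For *Nnmt* they were *Tsc22d3* (r = 0.94), *Gls2* (0.94) and *Proser2* (0.93), and *Proser2* (0.91) and *Gls2* (0.91) were also nearest to *Cbs*, with *Agxt2l1* (0.89). *Gls2* encodes a liver glutaminase, and *Tsc22d3* is a known glucocorticoid-induced gene. *Cth* was nearest to *Acmsd* (0.96), an enzyme of tryptophan breakdown, the kinase gene *Sik1* (0.95) and the ornithine transporter gene *Slc25a15* (0.94). *Gnmt* was nearest to *Lcat* (0.92), *0610005C13Rik* (0.91) and *Serpinf1* (0.88), and *Ahcy* to *Hpd* (0.88), an enzyme of tyrosine breakdown, *Serpina1c* (0.87) and *Scnn1a* (0.87). *Mat1a* was nearest to *Ttc38* (0.93), *Srr* (0.92) and *Eif4b* (0.92), *Bhmt* to *Cyp2d12* (0.87), *Fam63a* (0.83) and *Cyp2d9* (0.82), *Bhmt2* to *1110054M08Rik*, *C330021F23Rik* and *Map2k3* (0.88 to 0.89) and *Pemt* to *Kdelr1* (0.97), *Eif5a* (0.95) and *Zfyve21* (0.95). These correlations were not recomputed by series or without KOhfd51, which was the extreme library for *Mat1a*, *Bhmt*, *Bhmt2* and *Pemt*. Between the members *Mat1a* and *Pemt*, r was -0.40 over all libraries and 0.33 without KOhfd51.

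Per length, the order of the members' mean FPKM as deposited was the same in both genotypes, *Bhmt*, *Gnmt*, *Mat1a*, *Ahcy*, *Pemt*, *Cbs*, *Cth*, *Bhmt2* and *Nnmt*. In WT, *Bhmt* ranked 37th and *Nnmt* 1328th of the 10835 genes by mean FPKM, and in *Gpr180*KO 31st and 778th. The FPKM lay above its own deposited interval in all 18 libraries for every member but *Cbs*, by a factor that differs between genes. On interval midpoints the order was the same in WT, while in *Gpr180*KO *Cbs* (258) came before *Pemt* (242), so the order of neighbours is uncertain. In WT the ranges of *Mat1a* and *Ahcy*, *Ahcy* and *Pemt*, *Pemt* and *Cbs*, and *Cth* and *Bhmt2* did not overlap, while those of the other neighbours did. *Cbs* and *Cth* were in WT 0.25 ± 0.20 apart on the log2 scale (SD, n = 9), with *Cbs* higher in 8 of 9 mice. In *Gpr180*KO the gap between *Bhmt2* and *Nnmt* was 0.25 ± 0.79 (SD, n = 9), within its spread, against 1.11 ± 0.70 in WT, and *Pemt* and *Cbs*, 0.28 ± 0.35 apart, were also within theirs. The gap between *Mat1a* and *Ahcy* was 0.75 ± 0.21 in WT and 0.36 ± 0.35 in *Gpr180*KO, where the ranges overlapped.

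Ratios of 2 genes within a library do not depend on the scaling between libraries, and 4 were compared by exact permutation (two-sided, 48620 ways to split the mice) with adjustment over the 4. The ratio of *Nnmt* to *Nampt*, whose enzymes methylate nicotinamide or return it to NAD, was 1.43 to 8.73 (median 3.68) in WT and 4.03 to 16.8 (median 7.94) in *Gpr180*KO. All 9 *Gpr180*KO mice were above the WT median, and the log2 difference of 1.40 passed the threshold (exact permutation p = 0.00107, adjusted p = 0.00428). *Nampt* itself was 10.7 to 21.1 FPKM (median 13.9) in WT and 7.16 to 14.1 FPKM (median 10.2) in *Gpr180*KO, a log2 difference of -0.50 ± 0.15 (SE, limma adjusted p = 0.0538, or 0.0150 with the series as a block). Within the series the log2 difference of the ratio was 0.86 in series 1, at the smallest p that 4 against 4 mice allow (exact permutation p = 0.0286, adjusted p = 0.114), and 1.83 in series 2 (exact permutation p = 0.0159, adjusted p = 0.0635).

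The other 3 ratios did not pass. *Mat1a* to *Mat2a*, the liver form over the form of other tissues, was 36.2 to 56.4 (median 40.3) in WT and 42.3 to 60.9 (median 50.004) in *Gpr180*KO, with all 9 *Gpr180*KO mice above the WT median and a log2 difference of 0.22 (exact permutation p = 0.0279, adjusted p = 0.0559). It passed when WThfd157, KO320HFD, KO322HFD, KOhfd51 or KOhfd52 was left out. *Pemt* to *Pcyt1a*, 2 routes to phosphatidylcholine, differed by 0.29 (exact permutation p = 0.0946, adjusted p = 0.126), and was highest in KOhfd51, at 41.7 against a *Gpr180*KO median of 14.8. This ratio passed only without KOhfd52, and without KOhfd51 the difference was 0.13. *Bhmt* to *Mtr*, the betaine and folate routes of remethylation, differed by 0.44 (exact permutation p = 0.318, adjusted p = 0.318), and by 0.12 without KOhfd51, where the ratio was highest.

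Genes around the 9 members were read from 8 lists of related reactions, 107 genes of which 99 were compared. *Ftcd*, a folate enzyme of histidine breakdown, was called higher (128 to 156 FPKM between group means, log2 difference 0.29 ± 0.08, SE, limma adjusted p = 0.0392), *Tpmt*, thiopurine methyltransferase, was called lower (24.9 to 18.3 FPKM, -0.43 ± 0.11, SE, limma adjusted p = 0.0331), and 97 were called in neither direction. The shares were 1.01% higher and 1.01% lower, beside 0.452% and 4.28% of all genes, and the median difference was -0.06 beside -0.13 for all genes. After median-of-ratios scaling 7 were called higher and 0 lower (*Ftcd*, *Sardh*, *Aldh7a1*, *Mthfd1*, *Sqrdl*, *Coq5* and *Etnk2*), with *Tpmt* at -0.28 (limma adjusted p = 0.247). With the series as a block 4 were called higher (*Ftcd*, *Sardh*, *Aldh7a1* and *Etnk2*) and 5 lower (*Tpmt*, *Dnmt1*, *Pcyt1a*, *Nampt* and *Nmrk1*), with limma adjusted p = 0.0206 for *Sardh*, 0.0316 for *Etnk2* and 0.0197 for *Pcyt1a*. The block called 122 of all 10835 genes higher and 1031 lower.

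By list, none of the 10 other genes of the methionine cycle and remethylation was called, 9 of them had a lower mean in *Gpr180*KO, and their median difference was -0.17. The lowest p there was that of *Mat2a* (-0.18, limma adjusted p = 0.211). None of 10 genes of choline and betaine supply was called (median 0.05), with *Sardh*, sarcosine dehydrogenase, which takes up the product of the *Gnmt* reaction, at 0.27 and limma adjusted p = 0.0916. Of 15 folate one-carbon genes 1 was called higher (median 0.03), and of 15 other methyltransferases that use S-adenosylmethionine 1 was called lower (median -0.01). None was called among 14 genes of cysteine, taurine, hydrogen sulfide and glutathione (median -0.10, lowest p *Sqrdl*, 0.23, limma adjusted p = 0.122), 12 of phosphatidylcholine and phosphatidylethanolamine synthesis (-0.05, *Etnk2*, 0.33, limma adjusted p = 0.0658), 11 of polyamine synthesis and methionine salvage (-0.10, *Odc1*, -0.14, limma adjusted p = 0.230) and 12 of nicotinamide and NAD metabolism (-0.10, *Nampt*). The medians of these 8 lists lay between -0.17 and 0.05, below the 0.37 of the members. Members and lists were chosen with earlier results of these data known, so this contrast is a description only.

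**Figure D5:**
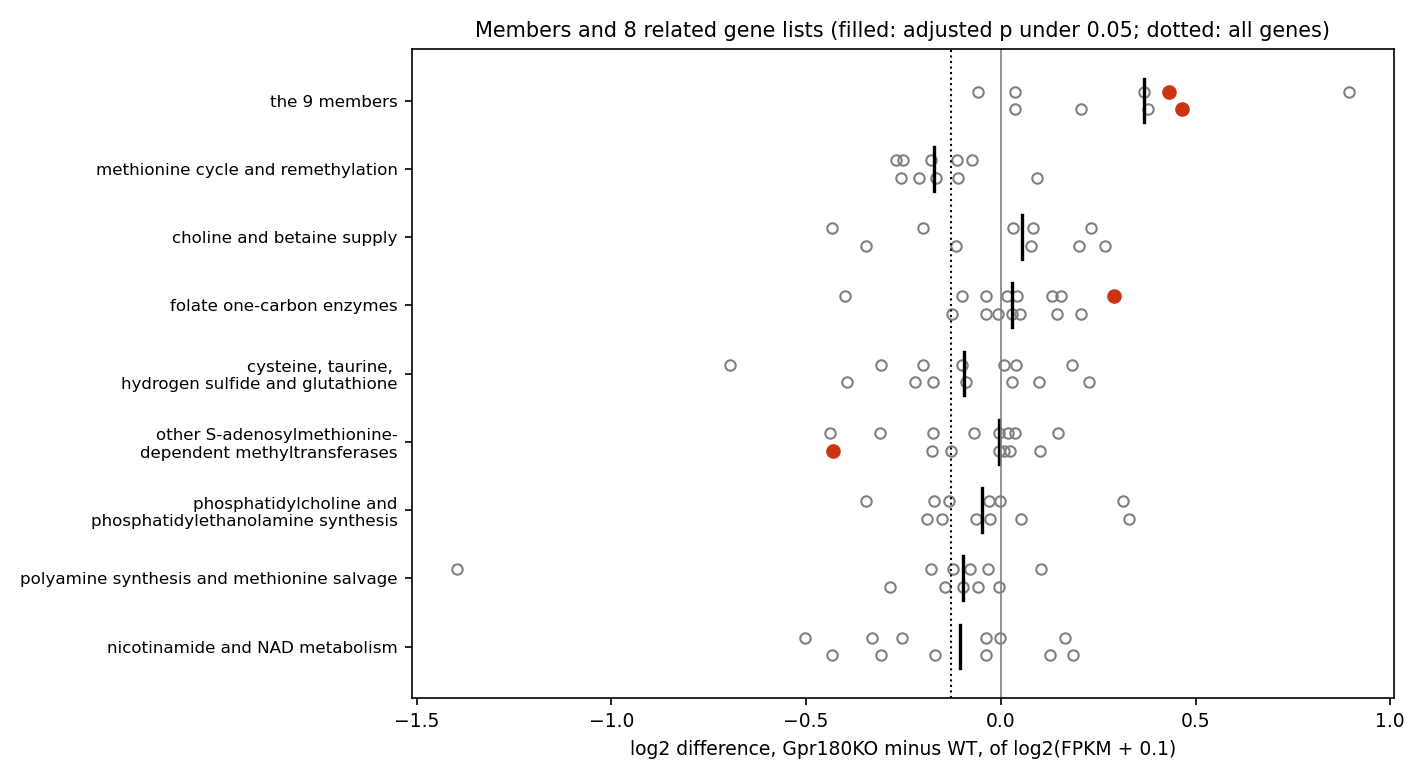
Each point is 1 gene, placed by its log2 difference between *Gpr180*KO and WT, for the 9 members and for the 8 related lists; filled points had a limma adjusted p under 0.05, black bars are list medians and the dotted line is the median of all genes at -0.13. The members' median is 0.37, and the list medians run from -0.17 to 0.05.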

How the data were processed

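Poly(A) RNA was sequenced from the liver of 18 mice, and the groups were taken from the sample labels. The authors aligned the 75-base single reads to mm10 with TopHat and deposited FPKM values, with a status and an interval beside each. The program that computed them is not given in the sources used here. The tables hold no counts and no read totals, so tests for counts were not used. Entries sharing a symbol were summed, and 24 symbols with failed estimates were left out. Interval half-widths of the members were 0.772 to 13.0% of the interval midpoint. Which error they cover is not given in the sources used here, and as each belongs to 1 library, they hold no spread between mice. Of values of at least 10 FPKM, 24.7 to 38.9% per library lay above their own interval, for a reason not given in the sources used here. The members' FPKM was 0.987 to 1.30 times the midpoint, a factor nearly constant between mice within a gene (*Pemt* 1.29 to 1.30), and the midpoint was tried as an alternative.

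Log2(FPKM + 0.1) of genes with a mean of at least 1 FPKM was fitted in R 4.3.3 with limma 3.58.1 (two-sided, eBayes with a trend), with Benjamini-Hochberg adjustment over all genes and a threshold of 0.05. Ratios were tested by exact permutation in Python 3.11.15. Each library is 1 mouse. The members and lists were chosen with earlier results of these data known. The text names the 9 members, *Gpr180*, list genes past the threshold or of lowest p, ratio partners and the 3 nearest genes per member. Other genes named as called under another scaling or with the block and the mice named were chosen after their values were seen. Near-copies were searched in GENCODE M21 transcripts. Data simulated for this comparison held 10835 genes, of which 200 were changed by a log2 fold of 1. There limma recovered 91% of the changed genes, and 3.19% of the calls were false. Both shares apply to the simulated data only. Recovery of differences as small as those of *Ahcy* (0.43) and *Cbs* (0.47) was not tested. The alternatives were 2 other pseudocounts, other FPKM minimums, scalings, weights and variance settings, the series as a block or alone, and each mouse left out.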

Additional observations from a re-analysis of the deposited data

Results flagged for a closer look

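Of 28 groups of 9 mice examined (9 members, *Gpr180* and the 4 ratio partners in each genotype), 6 had a mouse that stood apart from the nearest other by more than the critical share of the range. For independent, normally distributed values chance gives about 1 in 20 groups. Here the groups share their mice and several genes moved together, so the 6 are not independent and their number cannot be set against that rate. In WT these were *Gnmt* in WThfd157 at 1632 FPKM (next 1178 FPKM), *Cth* in WThfd134 at 209 FPKM (next 167 FPKM) and *Nnmt* in WThfd134 at 116 FPKM (next 68.0 FPKM). In *Gpr180*KO they were *Bhmt2* in KOhfd51 at 135 FPKM (next 115 FPKM), *Pemt* in KOhfd51 at 477 FPKM (next 336 FPKM) and *Mtr* in KOhfd51, lowest at 0.476 FPKM (next 1.58 FPKM).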

How the results depend on the processing

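*Ahcy* and *Cbs* were called higher under 14 of 16 alternatives each, the exceptions being TPM scaling and series 2 alone, where 0 members were called. *Nnmt* was called higher under 4 of the 16. These were series 1 alone, the series as a block, weights per library (limma adjusted p = 0.0394) and median-of-ratios scaling with the block (limma adjusted p = 0.0325). With any 1 mouse left out, 0 to 3 members, 0 to 2 related genes lower and 0 to 3 higher, and 116 to 844 of all genes lower and 16 to 89 higher were called. The difference ranged from 0.18 to 0.27 for *Mat1a* to *Mat2a*, 0.13 to 0.35 for *Pemt* to *Pcyt1a*, 0.12 to 0.58 for *Bhmt* to *Mtr*, 1.26 to 1.58 for *Nnmt* to *Nampt* and -2.07 to -1.90 for *Gpr180*.

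Of the related genes, 2 were lower with a minimum of 0.1 FPKM, 5 lower and 4 higher with the series as a block, 2 lower in series 1, 4 lower with weights per library, 2 higher and 0 lower with 75th percentile scaling, 0 higher with TPM, 7 higher and 0 lower with median-of-ratios scaling and, with that scaling and the block together (chosen after seeing the data), 9 higher and 0 lower. Of all genes, 776 were lower at a minimum of 0.1 FPKM, 200 at 5 FPKM, 147 with median-of-ratios scaling, 188 with the 75th percentile, 1031 with the block and 1161 with weights, and 146, 122, 90, 170 and 303 were higher with median-of-ratios scaling, the block, series 1, weights, and scaling with the block. Series 2 alone called 0 related genes and 0 of all genes in either direction, with *Gpr180* at -1.94, and the *Nnmt* to *Nampt* difference was 0.86 in series 1 and 1.83 in series 2, neither past the threshold.

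The sign turned for *Mat1a* (-0.0014) and *Bhmt2* (-0.0019) with TPM, *Bhmt* (-0.020) and *Bhmt2* (-0.091) in series 1, *Bhmt2* with weights (-0.038) and without WThfd134 (-0.0090) or KOhfd51 (-0.0088), against up to 0.061 without other mice, and *Pemt* with median-of-ratios scaling with or without the block (0.095), the 75th percentile (0.020) and in series 2 (0.018). None of these was called. The cause was not tested. No paired analysis was possible because the numbers in the titles name mice and pair none across genotypes. Without the read total of each library, the counting error of low genes such as *Mtr* could not be given.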
